A study of Mus musculus with 12 samples.

Results

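The sexes were compared at 65 weeks of age in bone endothelial cells (BECs), the cells that line the vessels of bone, across the genes of chromosomes 1 to 19. The members were the genes that GENCODE M39 placed on an autosome by their Ensembl ID and that passed a filter on low counts in these libraries. There were 13308 of them, out of 28853 autosomal genes and 37620 genes in the whole count table, and they held 92.45% of the counts. The groups were 3 libraries from female and 3 from male mice, all aged 65 weeks, of the inbred strain that the labels write as c57/Bl6 and the methods as C57BL/6J. No transgene or treatment was named for either group, and in both the BECs had been purified by endomucin, a sialomucin of capillary and venous endothelium. A further 3 female and 3 male libraries of 2-week-old mice, prepared alike, served for the comparison with age. Markers of several cell types differed widely in level between the ages, as given with that comparison. Per the labels the cells came from tibia, whereas the methods also describe isolation from femur, and samples were selected for sequencing by the quality of their RNA within each set. Whether each library came from its own mouse was not stated, so p-values measured only the spread between these libraries, which may be technical.

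Females and males carry autosomal genes in equal copy number, whereas genes of the X and Y chromosomes differ in dose. Circulating oestrogen acts through nuclear receptors that bind DNA and activate targets such as the progesterone receptor gene Pgr, and vessels and blood-forming cells of bone carry such receptors. Type I interferon signals through a complex that holds Stat2 and Irf9 to antiviral genes, the unfolded protein response raises chaperones of the endoplasmic reticulum, and SREBP factors control the enzymes that make sterols.

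Total counts were 29049031 to 34088694 in the females and 26044743 to 27323682 in the males, so depth moved with sex. The floor of detection was set at 3 counts, equal to 0.0880 to 0.115 CPM, the counts of a gene scaled by the total of its library. Markers of endothelium were measured in all 6 libraries, with 22 of 23 listed genes passing the filter. They took a small share of the counts: their summed level averaged 509 ± 43.2 CPM over the 3 females and 439 ± 43.2 CPM over the 3 males (± SD throughout). Genes of other bone marrow cells took more, since 17 erythroid genes summed to between 35003 and 53312 CPM and 22 neutrophil genes to between 14944 and 31773 CPM. In such bulk libraries, fewer cells of a type and less RNA per cell cannot be told apart.

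Male library 3 stood apart from the other two males. Over all autosomal genes tested, its mean distance on log2(CPM + 1) values was 45.6 to the females and 55.95 to the other males. For male library 1 these distances were 51.3 and 46.7, and for male library 2 they were 53.7 and 50.7. Xist, the X-linked RNA of the inactive X chromosome, had 117 counts in male library 3, against 3 and 0 in the other males and 3527 to 4442 in the females. Values without this library are therefore given beside the gene lists and many of the genes, and its part in them was not tested beyond that.

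Between the sexes, 2 autosomal genes passed the test, Prg4 and Serpina3n, and both were higher in males. They made up 0.015% of the genes tested (adjusted p under 0.05 in the quasi-likelihood test of edgeR, Benjamini-Hochberg). No gene was lower in males at this threshold, although 1373 genes (10.3%) had an unadjusted p under 0.05, 660 higher (4.96%) and 713 lower (5.36%). DESeq2 called 325 of 13071 genes (2.49%), 146 higher in males and 179 lower. Fitted fold changes were balanced, with 6605 genes (49.6%) above 0 and 6703 (50.4%) below, and a median log2 fold change, male over female, of -0.0018. The TMM scaling of the libraries centres most fold changes near 0, so this balance was largely set in advance.

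**Figure D1:**
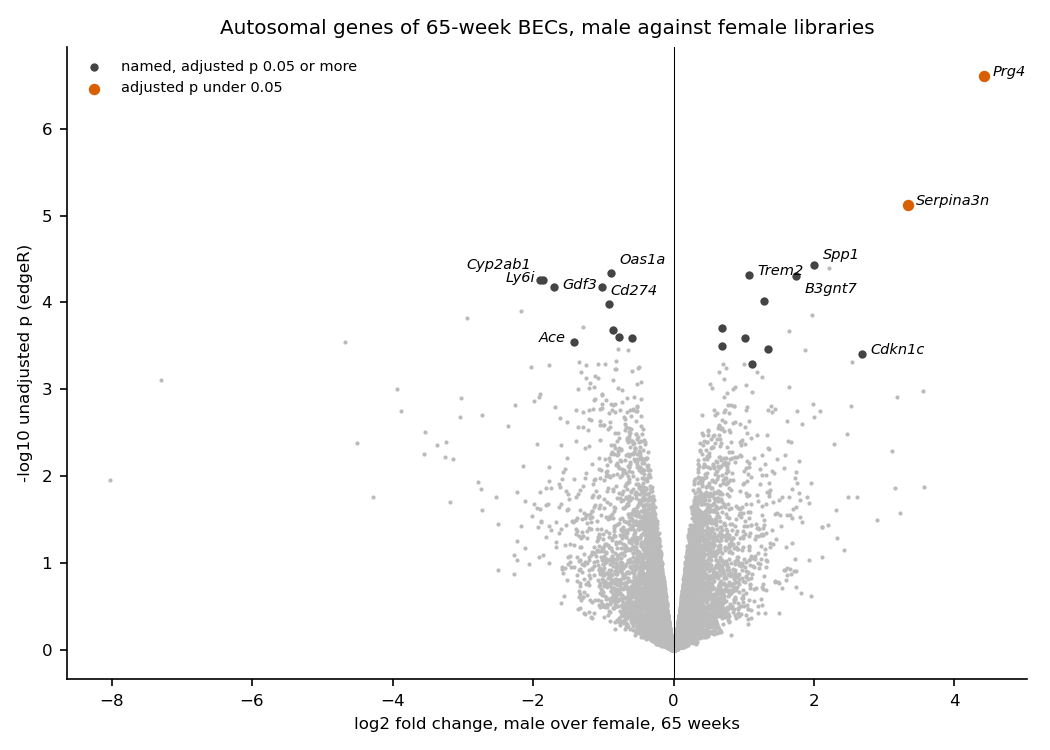
Each point is 1 of 13308 autosomal genes, with the log2 fold change of males over females on the x axis and -log10 of the unadjusted p on the y axis. Prg4 and Serpina3n, in orange, are the genes with an adjusted p under 0.05, and the 20 other named genes in dark grey have adjusted p-values of 0.0559 and more.

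Prg4 encodes lubricin, the lubricating proteoglycan of joint surfaces, and is annotated on GRCm39 at chr1:150325163-150342009. In the order of libraries 1, 2 and 3, it was measured at 0.413, 0.528 and 0.580 CPM in the females and at 13.6, 9.59 and 9.75 CPM in the males. The lowest male thus lay far above the highest female. Its log2 fold change was 4.42 (SE 0.290, a 21.4-fold difference), with an adjusted p of 0.000706. It passed in each of the 6 fits that left out 1 library, and without male library 3 its log2 fold change was 4.52.

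Serpina3n, a secreted serine protease inhibitor of the acute phase, is annotated at chr12:104372810-104380597. Its levels were 1.07, 1.32 and 1.71 CPM in females and 10.98, 9.85 and 21.4 CPM in males. The groups did not overlap, and male library 3 was the highest. The log2 fold change was 3.33 (SE 0.338), with an adjusted p of 0.0180. This call was the less stable of the pair: it held in 2 of the 6 fits that left out 1 library, with an adjusted p of up to 0.153, and was lost with the X and Y genes left out (0.0537). Without male library 3 it passed, with an adjusted p of 0.00407.

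Next in rank came genes that did not pass. By the naming rule, these were the 10 protein-coding genes with the smallest p in each direction whose libraries did not overlap and whose average log2 CPM was at least 3. Non-overlap itself was common, in 1255 genes (9.43%) for higher males and 813 (6.11%) for lower males. All 20 of these genes had an adjusted p above 0.05, from 0.0559 to 0.147, and each passed in 1 or 2 of the 6 fits with a library left out. All 20 passed without male library 3 and by DESeq2. Since their choice used this contrast, their separation is a description.

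The 10 genes on the male side had log2 fold changes between 0.69 and 2.68. Spp1, osteopontin, a matrix protein of bone and of macrophages, was at 19.8, 29.9 and 29.99 CPM in females and at 143, 84.4 and 94.0 CPM in males. The lowest male was well above every female, with a log2 fold change of 2.01 (SE 0.252, adjusted p = 0.0559). Trem2, a lipid-sensing receptor of macrophages and osteoclast precursors, was at 33.0, 30.4 and 28.9 CPM in females and at 74.7, 61.1 and 59.5 CPM in males, with a log2 fold change of 1.07 (SE 0.140). Cdkn1c, an inhibitor of cyclin-dependent kinases and an imprinted gene, was at 6.78, 12.1 and 5.15 CPM in females and at 81.8, 44.9 and 26.9 CPM in males. The males here spread widely, and the log2 fold change of 2.68 had an SE of 0.469. B3gnt7, a glycosyltransferase, had a log2 fold change of 1.75, and Emp1 and Pmp22, related membrane proteins, had 1.34 and 1.11. Itgad, an integrin subunit of splenic and marrow macrophages, had 0.69, with male library 3 the highest at 192 CPM. The remaining genes were Nhsl3 (1.29), Niban2 (1.01) and Mmp25 (0.69), a membrane-bound metalloproteinase of neutrophils.

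The 10 genes on the female side had log2 fold changes between -1.90 and -0.59. Oas1a, an oligoadenylate synthetase that senses double-stranded RNA, was at 34.1, 36.5 and 35.7 CPM in females and at 17.5, 21.1 and 19.2 CPM in males, a log2 fold change of -0.90 (SE 0.115). The females differed little from each other and every male was lower. Zbp1, a sensor of Z-form nucleic acids, was at 29.2, 29.2 and 31.6 CPM in females and at 14.4, 14.6 and 19.5 CPM in males (-0.91). Rnf213, a large interferon-induced ubiquitin ligase, was at 280, 296 and 252 CPM in females and at 133, 170 and 185 CPM in males (-0.78). Oasl2 had a log2 fold change of -0.86, and Igtp, an immunity-related GTPase, had -0.59.

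The other 5 genes on the female side had log2 fold changes of -1.01 and below. Ace, angiotensin-converting enzyme, was at 262, 477 and 368 CPM in females and at 107, 134 and 180 CPM in males, a log2 fold change of -1.42 (SE 0.236). Cd274, which encodes the checkpoint ligand PD-L1, was at 32.5, 35.1 and 40.6 CPM in females and at 17.7, 15.7 and 20.9 CPM in males (-1.01). Every male lay below every female in both, and the females spread widely in Ace. Ly6i, a GPI-anchored surface protein of the Ly6 family whose reads may be shared with close paralogues, had a log2 fold change of -1.85. Cyp2ab1, a cytochrome P450, had -1.90, and Gdf3, a ligand of the TGF-beta superfamily, had -1.70.

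**Figure D2:**
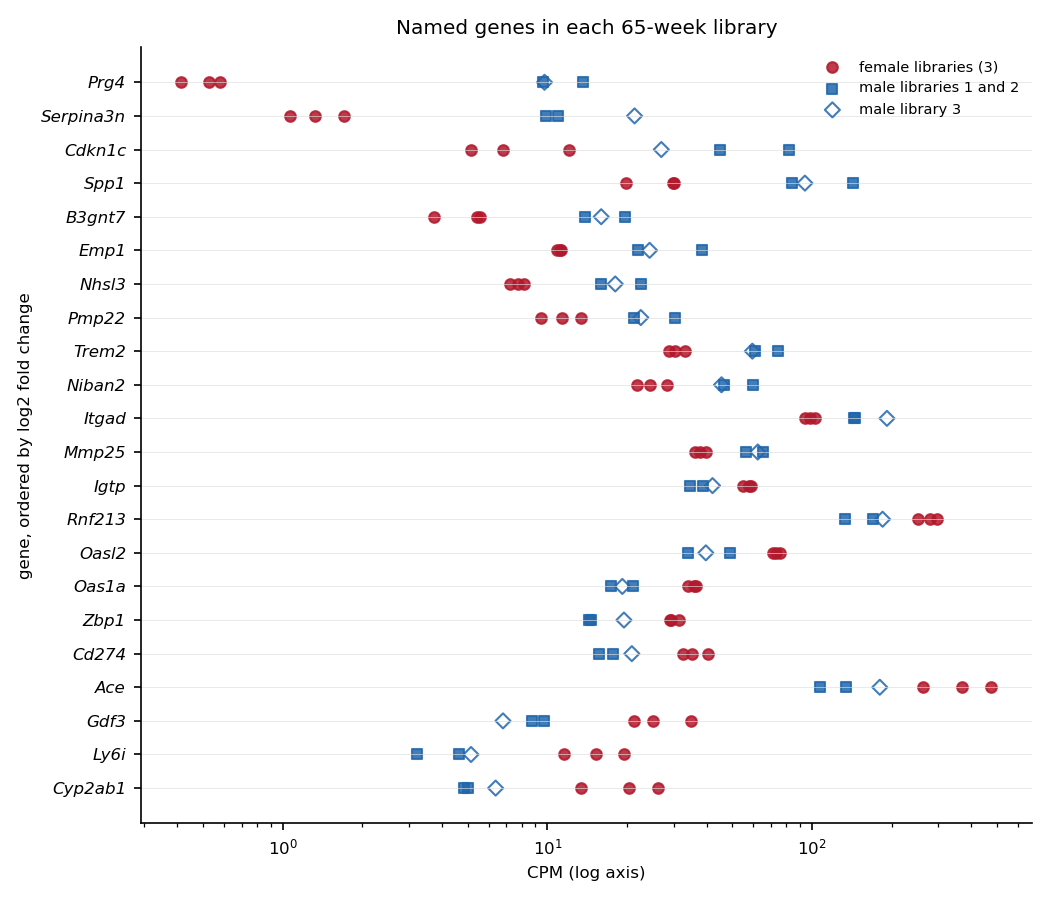
CPM on a log axis of the named genes in each 65-week library, with female libraries in red, males 1 and 2 as filled blue squares and male library 3 as open blue diamonds. The sexes do not overlap in any of these genes, which the naming rule required of all but Prg4 and Serpina3n, and for Cdkn1c male library 3 is the lowest male at 26.9 CPM.

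Leaving out male library 3 changed the number of calls more than any other library. Then 785 of 13640 genes passed (5.76%), 270 higher in males (1.98%) and 515 lower (3.78%), whereas leaving out any of the other 5 libraries gave between 1 and 10. The biological coefficient of variation was 0.229 with the library and 0.201 without it. On these 785 genes, the position of male library 3 was measured on a scale where 0 is the mean of the females and 1 that of males 1 and 2. Its median was 0.092. The library was nearer to the females for 616 genes and nearer to the males for 169, and for 337 genes it lay beyond the female mean. Among the 270 genes higher in males 1 and 2 the median was 0.33, and among the 515 lower ones it was 0.0024. As these genes were chosen without the library, its place is a description.

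**Figure D3:**
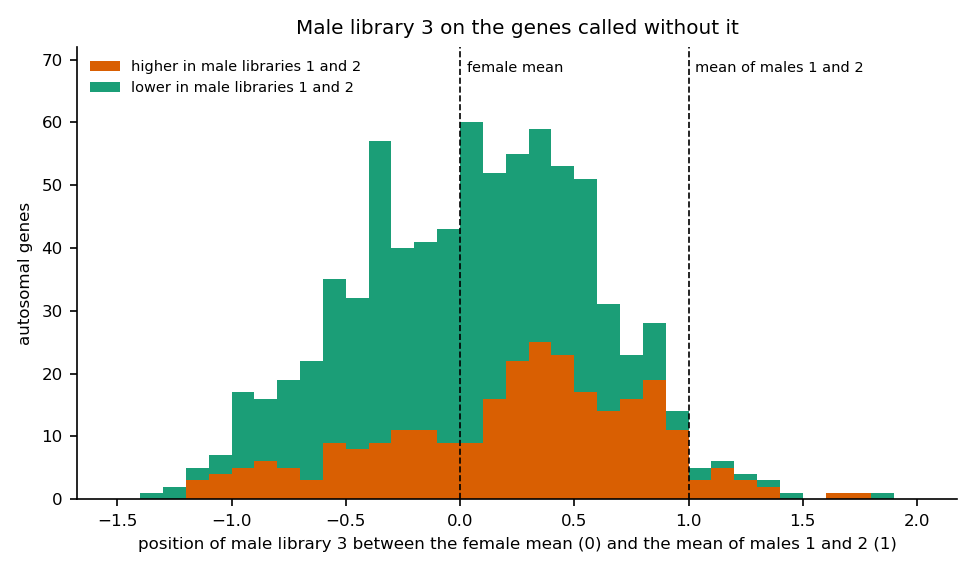
Number of autosomal genes by the position of male library 3, where 0 is the mean of the 3 females and 1 the mean of males 1 and 2, for the 270 genes higher and the 515 genes lower in males without it. The library lies nearer to the females for 616 of the 785 genes.

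Gene groups differed in where this library lay. For interferon and sterol genes the median of male library 3 lay near those of the other males, whereas for B cell and DNA replication genes it lay on the opposite side.

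**Figure D4:**
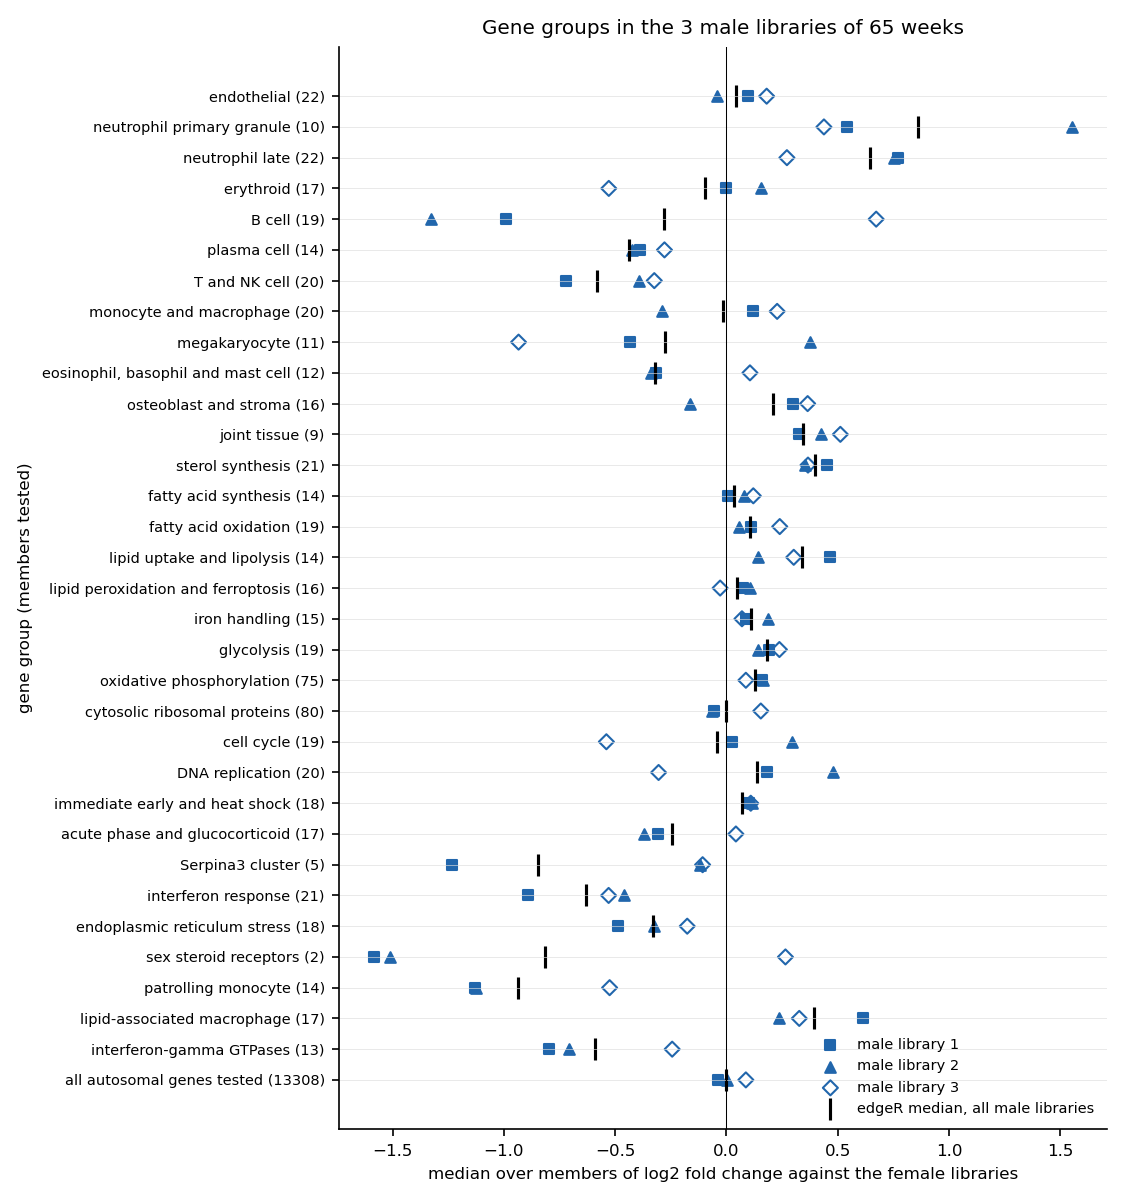
Median over the members of each gene group of the log2 difference from the mean of the females, with 1 point for each male library and the number of members tested in brackets. Medians of the interferon response are -0.89, -0.46 and -0.53 in males 1, 2 and 3, and those of the B cell list are -0.99, -1.33 and 0.67.

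Interferon response genes lay lower in males as a group. All 21 members tested had a fold change below 0, 18 with an unadjusted p under 0.05 (against 5.36% of all genes in that direction) and 16 with no overlap (against 6.11%). None passed after adjustment over all genes. The median log2 fold change was -0.63, ranging from -1.29 to -0.04, beside -0.0018 over all genes. DESeq2 called 11 of them, against 1.37% of all genes in that direction. Their summed level was 2012 ± 8.15 CPM over the 3 females and 1380 ± 155 CPM over the 3 males. With male library 3 left out, the median was -0.63 and 10 members passed, against 3.78% of all genes.

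Abundant members were Rsad2 and Isg20. Rsad2, viperin, which blocks viral replication, was at 606, 590 and 538 CPM in females and at 364, 461 and 303 CPM in males (log2 fold change -0.63, SE 0.171). Every male lay below every female. Isg20, an exonuclease, did not separate the sexes (-0.04, SE 0.198, and 0.16 without male library 3). Irf7, a factor that amplifies interferon production, was at 110, 98.7 and 119 CPM in females and at 52.4, 76.6 and 53.8 CPM in males (-0.86). Stat2 and Irf9, which carry the interferon signal, had -0.56 and -0.49. Ifi44 had the most negative value, -1.29, at 10.2 to 11.8 CPM in females and 3.74 to 5.80 CPM in males. Irf7, Ifi44, Stat2 and Irf9 were picked here after their values were seen.

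Promoters of interferon genes often hold the core of the interferon-stimulated response element, TTTC, any 2 bases and TTTC, bound by the complex of Stat2 and Irf9. Promoter windows, 250 bases before to 50 after the start in RefSeq on GRCm38.p6, were matched for 14 of the 21 members, and 9 of these held the motif on either strand (64.3%), against 3.99% of 27025 promoters. The median log2 fold change was -0.56 for the 9 members with it and -0.49 for the 5 without. For the 7 members with no matched window it was lower, -0.68. A match is a description and no proof of binding. Stretches around the motif are shown for 4 members that lay lower in every male, 5′ to 3′ along each gene, with the motif in capitals. On the opposite strand its half-sites read GAAA.
Oas1a, chr5:120907526-120907575, minus strand: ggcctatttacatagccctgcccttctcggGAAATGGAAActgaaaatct
Oas3, chr5:120777695-120777764, minus strand: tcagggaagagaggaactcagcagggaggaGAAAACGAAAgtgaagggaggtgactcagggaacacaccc
Rsad2, chr12:26456533-26456602, minus strand: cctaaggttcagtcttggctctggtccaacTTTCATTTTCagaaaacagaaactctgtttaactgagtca
Isg15, chr4:156200851-156200920, minus strand: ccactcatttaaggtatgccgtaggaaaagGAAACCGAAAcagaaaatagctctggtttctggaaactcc
The motif lay 20 to 11 bases before the start in Oas1a and 120 to 111 bases before it in Rsad2, so its distance and strand differed among the 4. In Oas1a and Isg15 further matches overlapped the one shown.

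Gene groups related to the interferon list were written down only after values had been seen. Their counts against all genes were in part set by that choice and are a description. GTPases induced by interferon-gamma, which act against microbes inside cells, lay below 0 in 13 of 13 members tested, with a median of -0.59. Of these 12 had an unadjusted p under 0.05 (against 5.36% of all genes) and 7 did not overlap (against 6.11%). Gbp2, a guanylate-binding protein, was at 80.4, 64.9 and 93.3 CPM in females and at 33.6, 34.5 and 62.9 CPM in males (-0.89, SE 0.230). Male library 3 lay nearest to the females. Without it the median was -0.85 and 11 of the 13 passed, against 3.78% of all genes.

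Genes of patrolling monocytes, the non-classical type that crawls along vessel walls, formed a further such list. Its counts against all genes are likewise a description. All 14 members lay below 0, with a median of -0.94, 12 with an unadjusted p under 0.05 (against 5.36% of all genes) and 10 without overlap (against 6.11%). DESeq2 called 10 of them, against 1.37% of all genes. Leaving out male library 3 gave a median of -1.12, and 10 passed in edgeR, against 3.78%. Nr4a1, a nuclear receptor that these monocytes need to develop, was at 64.3, 116 and 84.5 CPM in females and at 27.4, 31.1 and 47.3 CPM in males (-1.35, SE 0.243). Cx3cr1, the fractalkine receptor, was at 170, 269 and 193 CPM in females and at 91.9, 96.2 and 141 CPM in males (-0.96), and Fcgr4, an Fc receptor, had -1.22. Males 1 and 2 were close to each other in these genes and male library 3 lay between them and the females. The broader list of 20 monocyte and macrophage genes had a median of -0.01, and of -0.12 without male library 3.

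On the male side, a list of lipid-associated macrophage genes, also added after seeing values, had 14 of 17 members above 0 and a median of 0.39. Of its members 9 were higher with an unadjusted p under 0.05, against 4.96% of all genes. The median was 0.50 without male library 3, and 5 passed, against 1.98% of all genes. Spp1 and Trem2, named above by their rank, belong to it, and its counts against all genes are a description. Gpnmb, a glycoprotein of macrophages and osteoclasts, was at 64.5, 96.6 and 83.2 CPM in females and at 502, 321 and 140 CPM in males (1.99, SE 0.427), so that male library 3 was the lowest male. Lpl, the lipase that releases fatty acids from lipoproteins, was at 174, 172 and 266 CPM in females and at 407, 343 and 368 CPM in males (0.86, SE 0.185).

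Chaperones and sensors of endoplasmic reticulum stress lay lower in males. All 18 members tested were below 0, with 13 at an unadjusted p under 0.05 (against 5.36% of all genes), 9 without overlap (against 6.11%) and a median of -0.33. None passed over all genes, and DESeq2 called 5 (against 1.37%). With male library 3 left out, the median was -0.39 and 6 passed, against 3.78% of all genes. The summed level was 4195 ± 457 CPM over the 3 females and 3294 ± 394 CPM over the 3 males. Medians of males 1, 2 and 3 were -0.49, -0.33 and -0.18.

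Calr, Hspa5 and Hsp90b1, chaperones of the endoplasmic reticulum, were its most abundant members. Hsp90b1 was at 845, 649 and 622 CPM in females and at 398, 435 and 547 CPM in males (-0.64, SE 0.152). Hspa5, also known as BiP, was at 966, 750 and 771 CPM in females and at 575, 709 and 728 CPM in males (-0.32, SE 0.135). In both, female library 1 was the highest of the 6. Calr differed by less, -0.17 (SE 0.105). Creld2, a disulphide isomerase chosen after its values were seen, was at 156, 68.1 and 73.3 CPM in females and at 45.3, 45.9 and 52.3 CPM in males (-1.06, SE 0.292).

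The endoplasmic reticulum stress element, CCAAT, any 9 bases and CCACG, is the site through which Atf6 and NF-Y act. It was found in 6 of the 15 matched promoters (40.0%), against 0.137% of all promoters. Medians were -0.31 for the 6 with it, -0.35 for the 9 without and -0.34 for the 3 with no matched window. Stretches of the same windows are shown for 3 members whose sexes did not overlap, with the element in capitals. On the opposite strand it runs from CGTGG to ATTGG.
Hspa5, chr2:34771995-34772073, plus strand: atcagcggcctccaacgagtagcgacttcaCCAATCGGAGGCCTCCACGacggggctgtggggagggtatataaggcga
Creld2, chr15:88819490-88819568, plus strand: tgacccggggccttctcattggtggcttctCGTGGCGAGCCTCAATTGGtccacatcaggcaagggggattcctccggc
Hsp90b1, chr10:86705608-86705686, minus strand: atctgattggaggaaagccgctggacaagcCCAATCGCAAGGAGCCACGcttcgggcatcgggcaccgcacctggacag
The element ran from 65 to 47 bases before the start in Hspa5 and from 126 to 108 bases in Creld2. Hsp90b1 held a further copy nearer to its start.

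Plasma cells make secretory chaperones in quantity, and their genes were read beside that list. Of 14 members tested, 7 were lower in males with an unadjusted p under 0.05 (against 5.36% of all genes) and 4 did not overlap (against 6.11%), with a median of -0.44. Leaving out male library 3 gave a median of -0.39, and 4 passed, against 3.78%. The summed level was 11463 ± 1422 CPM over the 3 females and 7744 ± 757 CPM over the 3 males. Igkc, the kappa light chain constant region, was at 7787, 6241 and 6703 CPM in females and at 6507, 5067 and 4141 CPM in males (-0.40, SE 0.197, and -0.23 without male library 3). Jchain, which joins immunoglobulin polymers, was level between the sexes (-0.02, SE 0.227). Ighg2b, a heavy chain gene, was at 382, 1985 and 4055 CPM in females and at 484, 400 and 868 CPM in males, so that its log2 fold change of -1.90 (SE 0.688) rested on female libraries 2 and 3. The part of plasma cells in the chaperone values was not tested.

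Genes of sterol synthesis lay higher in males. All 21 members tested were above 0, with 10 at an unadjusted p under 0.05 (against 4.96% of all genes) and 13 without overlap (against 9.43%). Their median was 0.40, none passed over all genes, and DESeq2 called 4 (against 1.12%). Male library 3 lay with the other males, since the medians of males 1, 2 and 3 were 0.45, 0.35 and 0.37. Summed levels were 532.5 ± 19.5 CPM over the 3 females and 679 ± 28.2 CPM over the 3 males. The median was 0.42 without male library 3, and 4 members passed, against 1.98% of all genes.

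Fdps, which makes farnesyl diphosphate and is the target of bisphosphonate drugs, was at 28.5, 28.6 and 27.4 CPM in females and at 45.9, 54.8 and 39.2 CPM in males (0.72, SE 0.150). Msmo1, methylsterol monooxygenase, was at 19.4, 22.3 and 21.0 CPM in females and at 40.2, 28.4 and 31.2 CPM in males (0.66, SE 0.166). Each male lay above each female in both. Hsd17b7, which acts in cholesterol synthesis and can also form oestradiol, was at 5.16, 4.28 and 5.66 CPM in females and at 11.8, 8.26 and 9.25 CPM in males (0.95, SE 0.221). These 3 were chosen after their values were seen. Among the most abundant members, Srebf2, the factor that controls the pathway, had a log2 fold change of 0.18 (SE 0.105). The sterol regulatory element, TCACNCCAC, was in 0 of 14 matched promoters of the list and in 1.44% of all promoters.

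Other lipid lists were nearer to 0. Fatty acid synthesis had a median of 0.04 over 14 genes, and of 0.08 without male library 3. Fatty acid oxidation had 0.10 over 19 genes with that library and without it. Cpt1a, which carries fatty acids into mitochondria, had a log2 fold change of -0.42 (SE 0.148). Its level was 173 ± 10.4 CPM over the 3 females and 131 ± 32.0 CPM over the 3 males, and it passed without male library 3 (adjusted p = 0.0168). Lipid uptake and lipolysis had a median of 0.34 over 14 genes, 6 of them higher at an unadjusted p under 0.05 (against 4.96% of all genes). With male library 3 left out, its median was 0.38 and 3 passed, against 1.98%. Its most abundant member Cd36, a fatty acid receptor, had -0.28 (SE 0.162), and -0.13 without that library. Fabp4, a fatty acid binding protein of capillaries and adipocytes, was at 119.5, 140.2 and 117.6 CPM in females and at 191, 110.2 and 175 CPM in males (0.32, SE 0.201). The sexes overlapped, with male library 2 the lowest of the 6.

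Over 15 genes of iron handling the median was 0.11, with 12 above 0. Without male library 3 it was 0.30, with 13 above 0, and without male library 2 it was -0.01. Fth1, the ferritin heavy chain, was at 3342 ± 158 CPM over the 3 females and 4235 ± 424 CPM over the 3 males, and Ftl1, the light chain, at 2986 ± 80.2 and 3921 ± 470 CPM. Their log2 fold changes were 0.33 (SE 0.122) and 0.38 (SE 0.125), neither past the test. Tfrc, the transferrin receptor for iron uptake, had 0.10 (SE 0.203), and 0.30 without male library 3. Genes of lipid peroxidation and ferroptosis had a median of 0.05 over 16 genes, 8 on either side of 0, but of 0.14 with 14 above 0 without male library 3. Gpx4, the peroxidase that reduces lipid peroxides, had 0.18 (SE 0.134), and 0.29 without that library.

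Energy metabolism genes lay above 0 by small amounts. Of 19 glycolysis genes 15 were above 0, with a median of 0.18 (also 0.18 without male library 3), and Pkm, the last enzyme of the pathway, had 0.35 (SE 0.114). Of 75 oxidative phosphorylation genes 69 were above 0 and 27 did not overlap (against 9.43% of all genes), with a median of 0.13, yet 2 were higher at an unadjusted p under 0.05 (against 4.96%). Without male library 3 their median was 0.18. The 80 cytosolic ribosomal protein genes had a median of -0.0038, and of -0.04 without it. By library, 61, 59 and 2 of them lay below the female mean in males 1, 2 and 3. Their medians there were -0.06, -0.07 and 0.15, beside -0.04, 0.0011 and 0.09 over all autosomal genes.

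Neutrophil genes lay higher in males at 65 weeks. Among 22 late genes, those of secondary granules and mature cells, 21 were above 0, 15 with an unadjusted p under 0.05 (against 4.96% of all genes) and 15 without overlap (against 9.43%), and the median was 0.64. Their summed level was 17431 ± 2456 CPM over the 3 females and 27976 ± 5548 CPM over the 3 males. None passed over all genes. DESeq2 called 12 (against 1.12% of all genes). Leaving out male library 3 gave a median of 0.81, and 13 passed, against 1.98%.

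S100a9 and S100a8, calcium-binding alarmins, and Ngp, a granule protein, were the most abundant. S100a9 was at 3382, 4140 and 5043 CPM in females and at 8296, 7406 and 5469 CPM in males (0.75, SE 0.212). S100a8 had 0.76 and Ngp 0.63. In each the lowest male was library 3. Ltf, lactoferrin, was at 1812, 1928 and 1805 CPM in females and at 3313, 3623 and 2187 CPM in males (0.71, SE 0.201). Mmp9, a gelatinase of neutrophils and osteoclasts, was at 539, 620 and 734 CPM in females and at 1395, 1058 and 990 CPM in males (0.86, SE 0.185). Both were chosen after their values were seen.

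Primary granule genes, made by neutrophil precursors, had 9 of 10 members above 0, 7 of them at an unadjusted p under 0.05 (against 4.96% of all genes), and a median of 0.86. Without male library 3 it was 1.10. Among the most abundant members, Srgn, the granule proteoglycan serglycin, had -0.13 (SE 0.144) and Clec12a, an inhibitory lectin receptor of myeloid cells, had 0.49 (SE 0.119). Mpo, myeloperoxidase, was at 210, 255 and 337 CPM in females and at 399, 934 and 370 CPM in males (1.08, SE 0.360). Male library 2 was far above the other males, and without it the median of the list was 0.47.

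**Figure D5:**
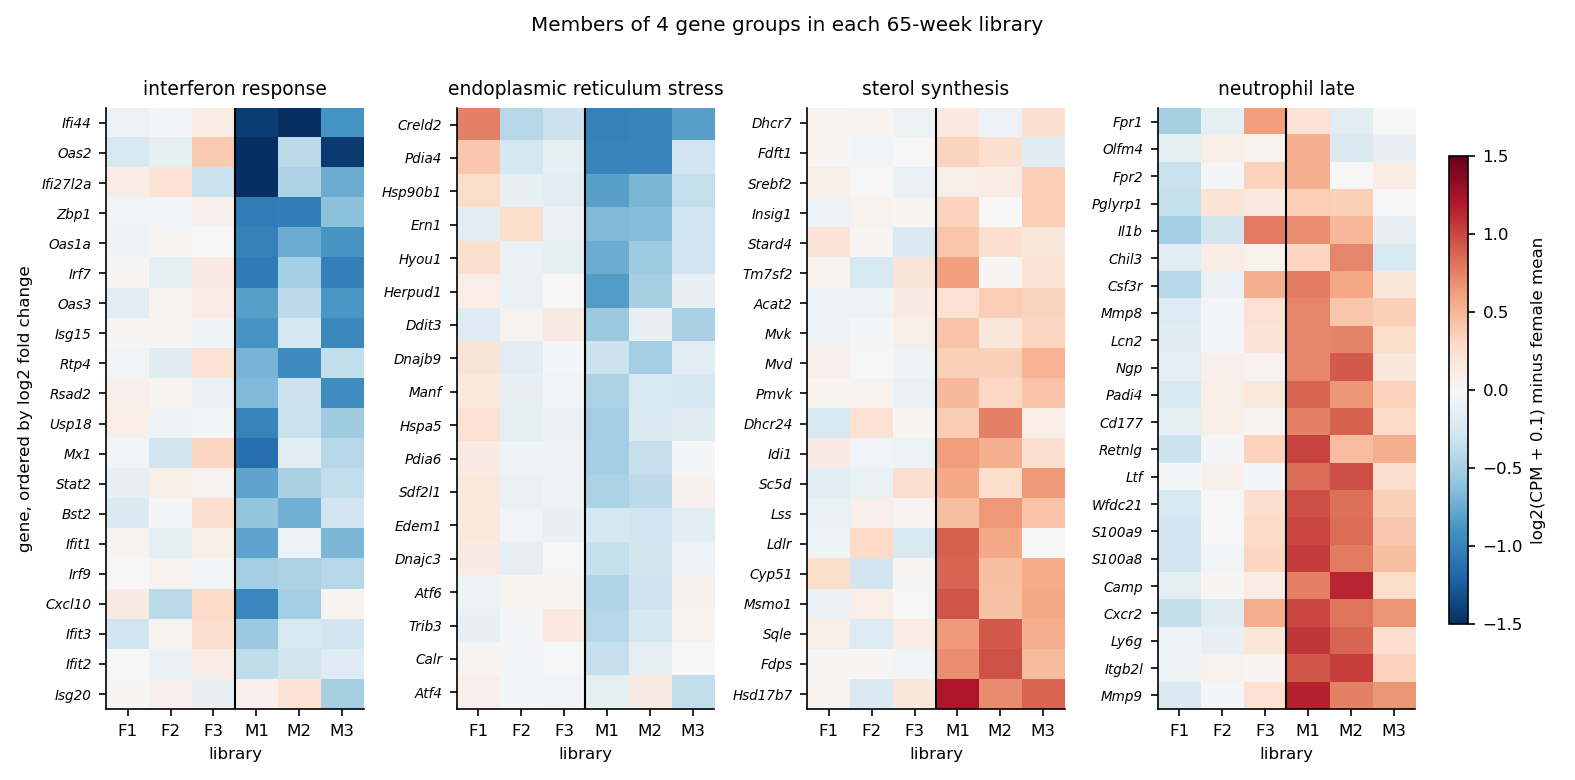
Members of 4 gene groups in each 65-week library, coloured by log2(CPM + 0.1) minus the mean of the females. Interferon genes have a negative fold change and sterol genes a positive one, with 20 of the 21 members of each drawn, whereas among the late neutrophil genes male library 3 lies closer to the females than males 1 and 2 do.

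The B cell list depended on male library 3. Of 19 B cell genes 16 were below 0, with a median of -0.28, 2 of them lower at an unadjusted p under 0.05 (against 5.36% of all genes). Medians were -0.99 and -1.33 in males 1 and 2 and 0.67 in male library 3. Without that library the list's median was -1.15, and 10 members passed (against 3.78%). Cd79a, a signalling chain of the B cell receptor, was at 326, 233 and 227 CPM in females and at 124, 111 and 412 CPM in males. Males 1 and 2 were the lowest of the 6 libraries and male 3 the highest. The log2 fold change was -0.33 (SE 0.438), and without male library 3 it was -1.14 with an adjusted p of 0.0129. Ighm, the heavy chain of IgM, was highest in female library 1 at 17744 CPM and had -0.28 (SE 0.354), or -0.10 without male library 3. Genes of T and NK cells had a median of -0.58 over 20 genes, 17 below 0 and 5 lower at an unadjusted p under 0.05 (against 5.36%), most of them at under 20 CPM. Their median was -0.60 without male library 3, with 17 below 0, and -0.34 without female library 3.

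DNA replication and cell cycle genes turned on male libraries 2 and 3. All 20 replication genes were above 0, with a median of 0.14, but 0 had an unadjusted p under 0.05 and 0 were free of overlap. In male library 2 their median was 0.48, and without that library the list's median was -0.04. In male library 3 all 20 lay below the female mean, with a median of -0.30, and without it the list's median was 0.35. Rrm2, a subunit of ribonucleotide reductase, had 0.16 (SE 0.204) with the library and 0.38 without (adjusted p = 0.0436). Cell cycle genes had a median of -0.04, which was 0.17 without male library 3 and -0.21 without male library 2. Megakaryocyte genes were all 11 below 0 with a median of -0.28. Their median was 0.0050 without male library 3 and -0.71 without male library 2. The erythroid list had -0.10 over 17 genes, and 0.08 without male library 3. Genes of eosinophils, basophils and mast cells had -0.32 over 12 genes, -0.42 without male library 3 and 0.14 without female library 2. Immediate early and heat shock genes had 0.07 over 18, and 0.12 without male library 3.

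Receptors of sex steroids gave low values. Esr1, oestrogen receptor alpha, was at 7.92, 7.01 and 7.78 CPM in females and at 4.79, 4.33 and 10.3 CPM in males, so that males 1 and 2 lay below the females and male library 3 above them. Its log2 fold change was -0.26, and -0.71 without male library 3 (adjusted p = 0.0889). Pgr, the progesterone receptor and an oestrogen target, was at 1.31, 0.499 and 1.06 CPM in females and at 0.0732, 0.111 and 0.960 CPM in males, with a log2 fold change of -1.37. Male library 3 was again at the female level, and without it the value was -3.30 (adjusted p = 0.0670). Esr2 and Gper1 did not pass the count filter.

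Greb1, a co-factor of oestrogen receptor alpha whose transcription oestrogen raises, was picked after its values were seen. It was the single autosomal gene tested with 0 counts in every library of a sex. Its counts were 12, 28 and 23 in the females and 0, 0 and 0 in the males, male library 3 included. Against the floor of 3 counts per library, its level was at least 6.01-fold lower in males. It did not pass over all genes (adjusted p = 0.157) and did without male library 3 (0.0413). In 24 genes the fitted log2 fold change exceeded 3 in size, 8 higher and 16 lower in males. Of these 15 lay below 3 CPM in both sexes and 6 were immunoglobulin variable genes, whose usage differs between animals.

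Joint tissue genes were read beside Prg4. Of 20 listed, 9 passed the count filter, 5 above and 4 below 0, with a median of 0.35, or 0.28 without male library 3 and 0.08 without female library 3. Fmod, fibromodulin of tendon and cartilage, was at 0.379, 0 and 0 CPM in females and at 0.842, 1.00 and 0.998 CPM in males. Crtac1, a cartilage matrix protein, was at 0.379, 0.557 and 1.26 CPM in females and at 1.72, 1.41 and 2.00 CPM in males. Both were higher in every male but low, and were singled out with their values known. Comp, a cartilage matrix protein, had 0.37 (SE 0.283), and Cd55, also made by synovial cells, had -0.20 (SE 0.191). The part of joint tissue in the Prg4 value was not tested. Of 16 osteoblast and stromal genes 11 were above 0, with a median of 0.21, which was 0.09 without male library 3 and ran from 0.08 to 0.32 with 1 library left out.

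Serpina3n lies in the Serpina3 cluster of chromosome 12, whose near-identical copies make the assignment of reads uncertain. Of 10 listed genes 5 were tested, 2 above 0 and 3 below. Both genes above 0, Serpina3n among them, had an unadjusted p under 0.05 (against 4.96% of all genes) and no overlap (against 9.43%). Of those below 0, 2 had an unadjusted p under 0.05 (against 5.36%) and 1 did not overlap (against 6.11%). Serpina3g was at 135, 105 and 147 CPM in females and at 54.3, 47.4 and 118 CPM in males (-0.85, SE 0.302). Serpina3f had -1.21 (SE 0.312), with no overlap. Both lay in the opposite direction to Serpina3n, and in both male library 3 was the male nearest to the females. Both passed without it, Serpina3g with -1.32 (adjusted p = 0.00742) and Serpina3f with -1.65 (0.00997). Acute phase and glucocorticoid-responsive genes, a list that holds Serpina3n, had 12 of 17 members below 0 and a median of -0.24, or -0.33 without male library 3. Fkbp5, a co-chaperone of the glucocorticoid receptor that glucocorticoids induce, was at 78.9, 98.3 and 128 CPM in females and at 32.9, 50.6 and 78.0 CPM in males (-0.95, SE 0.277), and was named after its values were seen. Lcn2, a neutrophil granule protein, had 0.58 (SE 0.180).

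Endothelial markers did not move together. Of 22 tested, 12 were above and 10 below 0, with a median of 0.04, or 0.03 without male library 3. Pecam1, the adhesion protein CD31 of endothelium and of some blood cells, was at 82.9, 106 and 74.6 CPM in females and at 29.2, 35.2 and 59.2 CPM in males (-1.12, SE 0.236). Every male was below every female, and it passed without male library 3 (adjusted p = 0.00718). Flt1, a receptor of vascular endothelial growth factor also found on monocytes, was at 14.6, 24.6 and 19.99 CPM in females and at 6.55, 10.4 and 10.4 CPM in males (-1.13, SE 0.238). Flt4, the receptor of lymphatic and sinusoidal vessels, lay the other way, at 7.68, 7.42 and 6.52 CPM in females and at 12.3, 12.1 and 11.6 CPM in males (0.73, SE 0.161). Flt1 and Flt4 were named after their values were seen. Emcn, which encodes the endomucin used for sorting, was at 5.23, 6.98 and 2.80 CPM in females and at 6.51, 4.59 and 5.80 CPM in males, which overlapped. Its log2 fold change of 0.16 (SE 0.339) turned to -0.13 without female library 3.

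Some differences came from 1 library. Igkv4-86, a kappa variable gene, was at 1573 CPM in female library 1 and at 0.519 to 5.08 CPM in the other 5. Marco, a scavenger receptor of marginal zone macrophages, was at 239.6 CPM in female library 3 and at 1.52 to 8.05 CPM elsewhere. Over 61 immunoglobulin variable genes tested, 29.5% had an unadjusted p under 0.05, against 10.2% of all other genes, with a median of -0.34. Summed over 79 such genes, tested or not, the level ran from 1375 to 2435 CPM in males and from 1723 to 5098 CPM in females. These genes were picked after their values were seen.

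Calls were spread along the genome. Without male library 3, between 4.33% and 8.64% of the genes of a chromosome passed, and with all 6 libraries the median log2 fold change of a chromosome ran from -0.04 to 0.03. Of the 4436 genes with the lowest level 1.42% passed without male library 3, and of the 4436 with the highest 9.90%. With all 6 libraries both calls, Prg4 and Serpina3n, lay among the 4436 genes with the lowest level.

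Prg4 was also the single gene that passed the test for a sex difference that changed with age. It was 1 of 14581 autosomal genes tested over all 12 libraries (0.00686%, edgeR interaction). At 2 weeks it was at 1.42, 2.40 and 0.992 CPM in females and at 1.41, 1.44 and 2.504 CPM in males. The sexes overlapped there, with a log2 fold change of 0.17 (SE 0.338). The interaction was 4.26 (SE 0.507, adjusted p = 0.0352) and was lost in 8 of the 12 fits that left out 1 library. In the same direction or the other, 1746 genes (12%) had an unadjusted p under 0.05 for the interaction, 842 above 0 (5.77%) and 904 below (6.2%). At 2 weeks itself 1 gene passed (0.00686%), lower in males, and 1440 (9.88%) reached an unadjusted p under 0.05, of which 676 were higher in males (4.64%) and 764 lower (5.24%).

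Interferon genes had the same sign at both ages. At 2 weeks all 21 were below 0, with a median of -0.46, and 8 of them reached an unadjusted p under 0.05 (against 5.24% of all genes). For 4 the interaction did, below 0 in each (against 6.2%). Late neutrophil genes differed by age. At 2 weeks 21 of 22 were below 0, with a median of -0.46. In either direction 14 reached an unadjusted p under 0.05 there (against 9.88% of all genes). For 18 the interaction lay above 0 at that level (against 5.77% of all genes). Chaperone genes were above 0 in 14 of 18 members at 2 weeks, with a median of 0.08, and 14 had an interaction below 0 at that level (against 6.2%). Sterol genes had a median of 0.06 at 2 weeks, and 8 had an interaction above 0 at that level (against 5.77%). None of these interactions passed after adjustment. Levels of cell markers also differed between the ages in both sexes. Emcn ran from 115 to 227 CPM at 2 weeks and from 2.80 to 6.98 CPM at 65 weeks. For Sparc, of the osteoblast and stromal list, these ranges were 2769 to 4699 and 76.2 to 114 CPM. Ighm lay the other way, at 266 to 402 CPM and at 6432 to 17744 CPM. The part of such differences in the interactions was not tested. Of the 20 genes named by rank, 19 had the same sign at 2 weeks, 10 of 10 on the male side and 9 of 10 on the female side, 3 and 5 of them with an unadjusted p under 0.05.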

How the data were processed

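RNA-seq libraries of BECs, 3 each from 65-week females and males and from 2-week females and males, were grouped by the sex and age in their labels. The deposited values were counts per gene, not normalised, with paired reads of 100 nt. The authors describe alignment with STAR to GRCm39 and counting with featureCounts, whereas their processing notes name TopHat2, HTSeq and mm9. This was not resolved, and neither the use of strand nor the handling of shared reads was stated. A kit for total RNA was used, though the labels name polyadenylated RNA.

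Of 37620 gene IDs 31052 (99.29% of counts) were placed by GENCODE M39, and 490 of the 14287 genes tested were not. Genes of all chromosomes that passed filterByExpr at a minimum count of 10 entered the quasi-likelihood test of edgeR 4.0.16 in R 4.3.3, on TMM-scaled libraries and without covariates. Their p-values were adjusted over all of them, and the autosomal ones are given. SEs were derived from the F statistic. DESeq2 1.42.0 and other scalings, filters and fits were alternatives. The scripts were tested on simulated data. Total counts set the precision, and the floor of 3 counts covers counting error only.

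The members, lists and naming rule were chosen with earlier results of these data known, and 3 of the lists after their values were seen. Named were every called gene, the 10 genes of smallest p in each direction, the most abundant members of each list (up to 3, of which those of lists with a median near 0 are in part left out), and genes the study had examined by other assays. The list genes Vpreb1, Ighd, Igha and Hmgcs1 had no match. Promoter windows were taken from RefSeq on GRCm38.p6 by symbol, and their coordinates are of that build. A few genes of the lists are not reported here by name, and remain in the counts and medians.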

Additional observations from a re-analysis of the deposited data

Results flagged for a closer look

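The sex difference of Prg4 was larger at 65 weeks than at 2 weeks by 4.26 on the log2 scale, a difference between the ages that passed its own test (edgeR interaction over 12 libraries, SE 0.507, adjusted p = 0.0352). Every male of 65 weeks lay above every female, from 9.59 to 13.6 CPM against 0.413 to 0.580 CPM, whereas at 2 weeks the sexes overlapped between 0.992 and 2.504 CPM. The call was lost in 8 of 12 fits that left out 1 library, with an adjusted p of up to 0.190, and with the replicate number as a block. Cell markers differed widely in level between the ages, and their part in this difference was not tested.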

How the results depend on the processing

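Between the sexes, the count of 2 autosomal genes was the same under DESeq2's size factors in edgeR, upper-quartile scaling, a minimum count of 50 and thinning to the smallest library. It was 1 with X and Y genes left out, 11 with a robust dispersion, 89 with no count filter, 325 by DESeq2, 223 by edgeR with all 12 libraries in 1 model and 897 by DESeq2 on all 12. Leaving out 1 library gave 1 to 785 calls, with 785 without male library 3 and 10 without male library 2. The interaction count of 1 gene was 336 by DESeq2, 6 with no count filter and 0 to 708 with 1 library left out, 708 of them without male library 3. With the replicate number as a block it was 0 (Prg4, adjusted p = 0.303), and the block left the sex count at 2. Deviations of same-numbered libraries from the mean of their sex had correlations of -0.0599, 0.00158 and -0.0713. With 3 libraries in each sex these values cannot show whether the numbers pair libraries. The cause of these shifts was not tested. Among named genes, the log2 fold change of Emcn ran from -0.13 (without female library 3) to 0.48 with 1 library left out, and that of Tfrc from -0.11 (without male library 2) to 0.30. Medians of gene lists, and that of all autosomal genes tested, were set against the main fit in 561 alternatives. In 7 of them a list moved by at least the SD of the log2 fold changes of its member genes. That SD is a spread between genes and not between libraries, so a list of widely spread members could shift without being counted. Each of the 7 left out male library 2 or 3. In 1 further alternative the list of sex steroid receptors held only Esr1, so no SD could be formed. Without male library 2 the medians were 0.47 for primary granule, -0.71 for megakaryocyte, -0.21 for cell cycle and -0.04 for DNA replication genes. Without male library 3 they were -1.15 for B cell, 0.17 for cell cycle and 0.35 for DNA replication genes. Genes at a few counts, such as Greb1, were limited by depth.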
